A study of Mus musculus with 8 samples.

Results

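Nucleotides released from cells are signals to microglia, the macrophages that live in brain and spinal cord tissue, and 9 genes of that signalling system were followed here across CD11c+ microglia of mice with neuromyelitis optica (NMO), CD11c- microglia of such mice and microglia of unmanipulated controls. The 9 genes were chosen by symbol among the 41388 gene identifiers of every library. They encode receptors for ADP (P2ry12, P2ry13), a receptor for UDP (P2ry6), channels gated by ATP (P2rx4, P2rx7), receptors for adenosine (Adora3, Adora2a) and the cell-surface enzymes that turn ATP into adenosine (Entpd1, Nt5e). Of the 9 genes, 8 had enough counts to be tested and Adora2a did not.

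The cells came from adult C57BL/6 mice and were sorted on CD11b, CD45 and CD11c before total RNA sequencing. NMO is an inflammatory disease of the optic nerve and spinal cord; how it was induced is not given in the labels. There were 2 libraries of NMO CD11c+ microglia, 3 of NMO CD11c- microglia and 3 of control microglia from unmanipulated mice, with no CD11c+ control. The titles call the control cells total microglia, whereas another label gives them as CD11c negative, so whether the CD11c sort was applied to them is not settled by the labels. The labels do not say whether libraries came from separate mice, and p-values here measure the spread between these libraries, which may be technical.

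Libraries held 4943207 and 5914412 counts for NMO CD11c+, 6437516 to 6819662 for NMO CD11c- and 7500815 to 9246061 for control. Itgax, which encodes CD11c, had 188 and 181 CPM (counts scaled to a common library size) in NMO CD11c+, 35.5 to 41.3 CPM in NMO CD11c- and 30.6 to 32.1 CPM in control, which follows the sort labels. The NMO and control libraries carry separate number ranges and no batch is given, so handling and disease cannot be told apart in comparisons with control. The summed CPM of 10 microglia markers was 32637 to 33045 in NMO CD11c+, 32857 to 39906 in NMO CD11c- and 38469 to 42657 in control. Neutrophil markers summed to 15.3 to 19.7 CPM over 10 genes in NMO CD11c+, with Ly6g at 0, against 2067 to 10682 CPM in NMO CD11c- and 864 to 1774 CPM in control. The 10 monocyte markers summed to 58.0 to 65.2 CPM in NMO CD11c+, 210.3 to 1007 CPM in NMO CD11c- and 84.4 to 159.5 CPM in control. Immediate early genes, which respond to handling, summed to 10011 to 41774 CPM over 16 genes in NMO CD11c+, 8168 to 21296 CPM in NMO CD11c- and 24673 to 51117 CPM in control. Replicate 1 of NMO CD11c+ stood apart: its gene levels relative to the other libraries followed transcript GC content (Spearman 0.592 over 11946 genes, against -0.299 to -0.0378 in the other 7). Values with a GC and length correction or without that library are therefore given where they differ.

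P2Y receptors are coupled to G proteins. P2ry12 and P2ry13 couple to Gi and sense ADP, and P2ry12 is the receptor by which microglial processes move toward ATP released from injured tissue. P2X receptors are cation channels opened by ATP, and sustained opening of P2rx7 leads to inflammasome activation. Entpd1 (CD39) removes phosphates from ATP and ADP, and Nt5e (CD73) turns the resulting AMP into adenosine.

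Each of the comparisons used edgeR's quasi-likelihood test on all 12002 genes with enough counts, and genes counted as called where the Benjamini-Hochberg adjusted p lay under 0.05. In NMO CD11c+ against control, P2ry12 and P2ry13 fell, to folds of 0.496 and 0.510, and P2rx4 rose, to a fold of 1.95. NMO CD11c- cells showed lower P2ry13 and higher P2rx4 than control. Between NMO CD11c+ and NMO CD11c-, none of the 8 tested genes was called. CPM are relative to library sizes scaled by the TMM method. In sorted bulk RNA, fewer cells with a transcript and less of it per cell cannot be told apart.

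The genes were read against the background of all genes. For NMO CD11c+ against control, 3 of the 8 tested genes were called, 1 higher and 2 lower; of all tested genes, 10.2% were called, 6.85% higher and 3.36% lower. For NMO CD11c- against control, 2 of 8 were called, 1 in each direction, against 3.72% of all tested genes, 3.0% higher and 0.717% lower. Between NMO CD11c+ and NMO CD11c-, 0 of 8 were called, against 0.283% of all tested genes. In that last comparison 3 of the 8 genes had an unadjusted p under 0.05, against 15.4% of all tested genes, and DESeq2 and the edgeR exact test each called 1 of them, P2rx4. In NMO CD11c- against control 4 of 8 had an unadjusted p under 0.05, against 18.8% of all tested genes. In NMO CD11c+ against control 6 of 8 did, against 28.8%. Nt5e, which passed the count filter only through NMO CD11c- and control libraries, is among the 3 and among the 6. The median log2 fold change of the 8 genes was -0.08 between the NMO subsets, 0.13 for NMO CD11c- against control and -0.22 for NMO CD11c+ against control. Over all tested genes these medians were 0.01, -0.004 and 0.01. The medians of the 8 include Nt5e, whose log2 fold change in NMO CD11c+ against control was -2.13. In that comparison 4 of the 8 genes lay above 0 and 4, Nt5e among them, below. No shift of the genes as a set is read from these medians. The comparisons share libraries, the controls among them, so their values are given side by side and not as independent evidence.

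**Figure D1:**
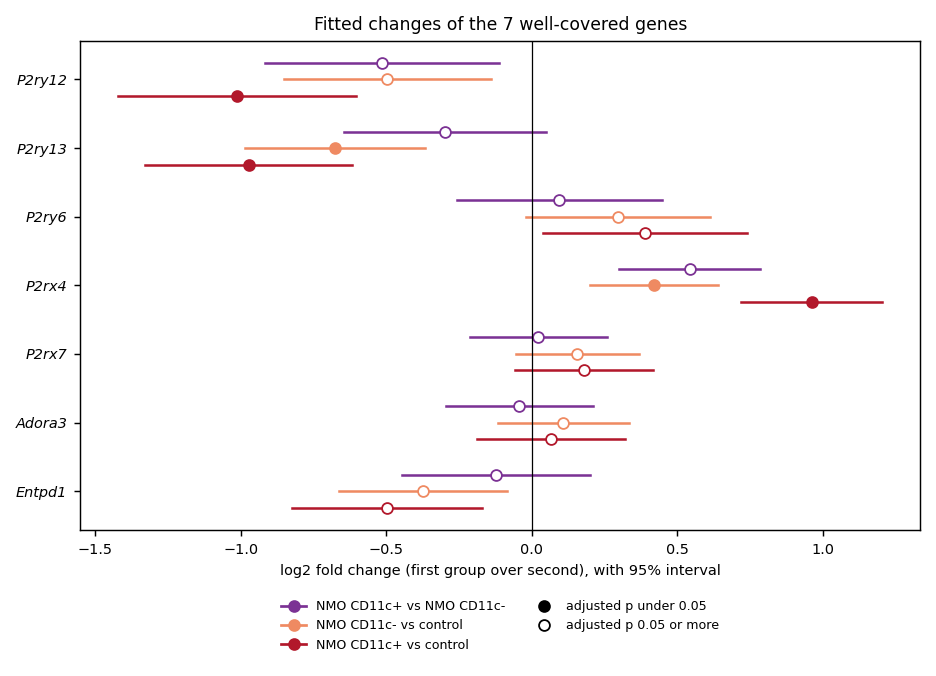
Log2 fold change (x axis) of 7 of the 8 tested genes, without the sparse Nt5e, in each comparison. Bars are 95% intervals from edgeR's quasi-likelihood fit and filled points have an adjusted p under 0.05. P2ry12 and P2ry13 lie near -1 and P2rx4 near 1 in NMO CD11c+ against control, and P2rx7 and Adora3 lie near 0 in each comparison.

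P2ry12 (ENSMUSG00000036353) lies on the minus strand of chr3:59216272-59262871 and P2ry13 (ENSMUSG00000036362) on the same strand at chr3:59207892-59210882, in GRCm38 with GENCODE M21 annotation. Both sit within the span of Med12l, which runs on the opposite strand at chr3:59005825-59318682. Their exons share 9 bases with Med12l in the case of P2ry12 and 0 bases in the case of P2ry13. Med12l itself had 64.5 and 66.8 CPM in NMO CD11c+, 65.5 to 72.3 CPM in NMO CD11c- and 74.6 to 80.3 CPM in control. P2rx4 (ENSMUSG00000029470), which moved the other way, lies on the plus strand at chr5:122707544-122729738.

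The start-site windows of these 3 genes are shown because they are the genes that were called: 250 bases before to 50 bases after the RefSeq start in GRCm38.p6, on the strand of the gene, at chr3:59262936-59263235 (minus) for P2ry12, chr3:59210833-59211132 (minus) for P2ry13 and chr5:122707294-122707593 (plus) for P2rx4. Capitals mark a match to GAGGAAG, a core recognised by the myeloid factor PU.1.
P2ry12: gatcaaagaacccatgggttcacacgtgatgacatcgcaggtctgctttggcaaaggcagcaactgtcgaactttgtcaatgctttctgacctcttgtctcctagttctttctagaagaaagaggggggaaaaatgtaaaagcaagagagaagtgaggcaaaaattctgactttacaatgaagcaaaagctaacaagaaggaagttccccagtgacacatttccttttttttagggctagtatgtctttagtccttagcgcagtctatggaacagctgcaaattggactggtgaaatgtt
P2ry13: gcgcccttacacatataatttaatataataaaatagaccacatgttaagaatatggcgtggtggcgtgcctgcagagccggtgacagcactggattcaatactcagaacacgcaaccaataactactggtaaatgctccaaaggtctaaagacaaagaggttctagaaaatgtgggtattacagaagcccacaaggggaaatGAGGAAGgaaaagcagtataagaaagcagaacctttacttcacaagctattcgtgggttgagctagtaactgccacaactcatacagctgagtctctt
P2rx4: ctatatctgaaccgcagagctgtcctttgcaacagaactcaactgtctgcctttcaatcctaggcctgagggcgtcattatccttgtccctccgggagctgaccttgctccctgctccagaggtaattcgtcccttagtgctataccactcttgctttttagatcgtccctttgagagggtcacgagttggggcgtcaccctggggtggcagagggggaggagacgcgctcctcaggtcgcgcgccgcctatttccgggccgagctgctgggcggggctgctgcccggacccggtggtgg

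Both strands were searched for GAGGAAG, for the AP-1 element TGANTCA, for a pair of interferon-element half-sites and for TATAAA. The P2ry13 window held GAGGAAG at bases 203 to 209, with its first base 48 bases before the start, and no other motif. The P2ry12 and P2rx4 windows held none of the 4, which says only that these letters are not in these windows. Of 32851 RefSeq windows of that length, 13.6% held GAGGAAG, 7.81% TGANTCA, 3.44% the interferon element pair and 13.6% TATAAA. GC content was 42.3% in the P2ry12 window, 42.3% in the P2ry13 window and 60.3% in the P2rx4 window. RefSeq windows were matched for 7 of the 9 genes, without P2ry6 and Adora2a. Among the others, Adora3 held GAGGAAG on the opposite strand and TGANTCA, and 1 of 2 windows of Entpd1 held GAGGAAG. For P2rx7, 1 of 2 windows held TGANTCA and the other held GAGGAAG on the opposite strand.

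P2ry12, the ADP receptor, had 1949.9 and 2759.9 CPM in NMO CD11c+, 3854, 2787 and 3461 CPM in NMO CD11c-, and 4714, 4910 and 4619 CPM in control. Every NMO library lay under every control library, and the higher CD11c+ library lay just under the lowest CD11c- library. Against control, P2ry12 fell in NMO CD11c+ by 1.01 ± 0.18 on the log2 scale (SE), a fold of 0.496 with a 95% interval of 0.374 to 0.659 and an edgeR adjusted p of 0.00860. For NMO CD11c- the log2 fold change against control was -0.50 ± 0.16 (SE, adjusted p 0.125), with a 95% interval of 0.555 to 0.907 in fold. Between the subsets it was -0.52 ± 0.18 (SE, adjusted p 0.240), with an interval of 0.529 to 0.924.

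The 2 CD11c+ libraries differed from each other in P2ry12 by more than the 3 control libraries did, and the size of the P2ry12 difference depended on them. P2ry12 transcripts have a GC content of 38.6%, against a median of 49.6% over tested genes, and the lower P2ry12 value is that of NMO CD11c+ replicate 1. The CD11c+ against control log2 fold change was -0.78 without that replicate (adjusted p 0.0240), -1.29 without replicate 2 (adjusted p 0.000692) and -0.74 with the GC and length correction (adjusted p 0.00474). It stayed called under each alternative. Between the subsets, P2ry12 differed by -0.79 without CD11c+ replicate 2 (adjusted p 0.00978), by -0.29 without replicate 1 and by -0.23 with the correction (adjusted p 0.442). The NMO CD11c- against control difference passed the threshold without CD11c+ replicate 1 (adjusted p 0.0276) or replicate 2 (0.0250). It also passed with no filter on low counts (0.0196), DESeq2 (0.0250), only the groups compared (0.0284) and the GC and length correction (0.0222), at log2 fold changes of -0.49 to -0.52. The summed microglia markers lay under the control range in NMO CD11c+ and overlapped NMO CD11c-, with 3 of 10 called lower and 0 higher in NMO CD11c+ against control, and their part in the P2ry12 and P2ry13 values was not tested. Immediate early sums did not overlap between NMO CD11c- and control, and their part was not tested either.

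P2ry13, the other ADP receptor, had 765.4 and 848.6 CPM in NMO CD11c+, 1168, 828.1 and 979.6 CPM in NMO CD11c-, and 1566, 1682 and 1502 CPM in control. No NMO library reached a control library, and the CD11c+ and CD11c- ranges overlapped. P2ry13 fell in NMO CD11c+ against control by 0.97 ± 0.16 on the log2 scale (SE, adjusted p 0.00490), a fold of 0.510, and that call held under each alternative. It also fell in NMO CD11c- against control, by 0.67 ± 0.14 (SE, adjusted p 0.0272). That second call was lost without NMO CD11c- replicate 2 (adjusted p 0.0945) or 3 (0.0932) and without control replicate 1 (0.110), 2 (0.120) or 3 (0.0837). Between the subsets the fold had a 95% interval of 0.640 to 1.03 (adjusted p 0.374).

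P2ry6, the UDP receptor tied to phagocytosis by microglia, had 394.0 and 272.2 CPM in NMO CD11c+, 322.2, 298.4 and 315.6 CPM in NMO CD11c-, and 236.2, 282.7 and 243.8 CPM in control. The CD11c+ libraries lay on either side of the CD11c- libraries, and the lower of them lay within the control range. The log2 fold change was 0.39 in NMO CD11c+ against control (adjusted p 0.136, fold interval 1.03 to 1.67) and 0.30 in NMO CD11c- against control (adjusted p 0.296, fold interval 0.986 to 1.53). Between the subsets it was 0.09 (adjusted p 0.785, fold interval 0.836 to 1.36). The CD11c+ value rested on replicate 1: P2ry6, whose transcripts have a GC content of 55.9%, differed from control by 0.63 without replicate 2 (adjusted p 0.00376), by 0.10 without replicate 1 (adjusted p 0.687) and by 0.19 with the GC and length correction.

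**Figure D2:**
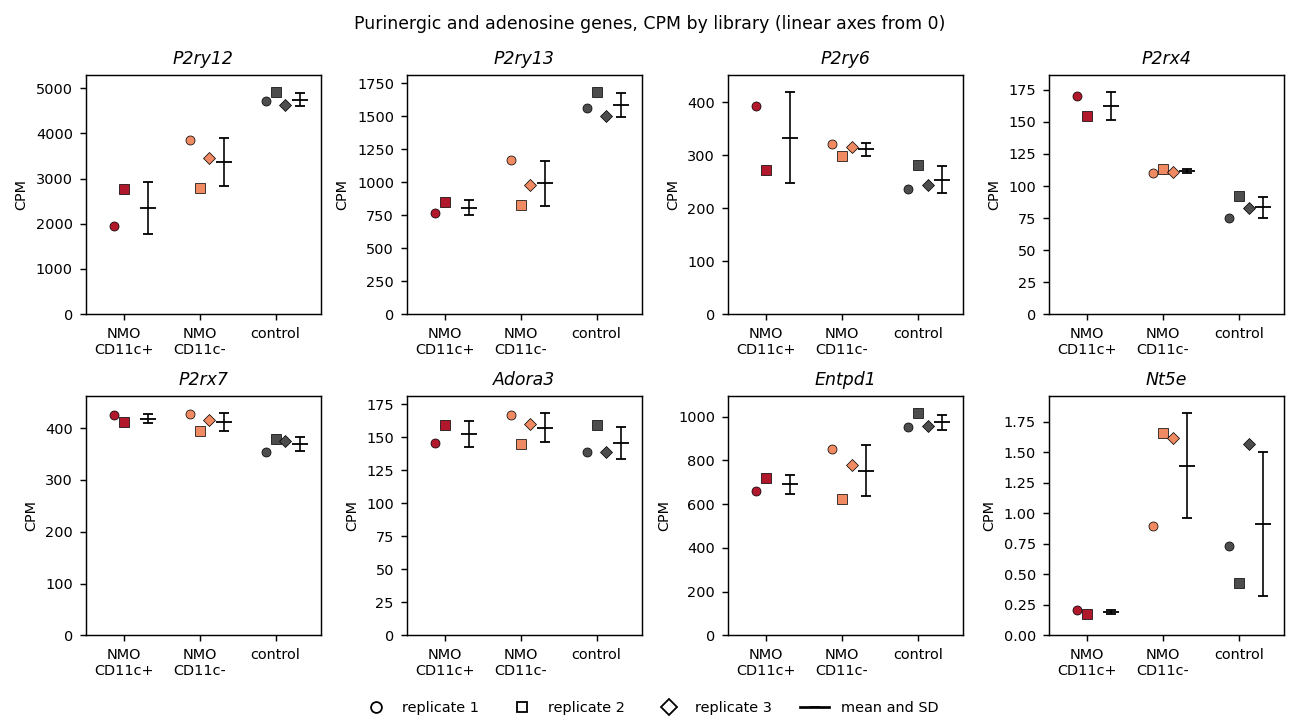
CPM of the 8 tested genes in every library, on linear axes starting at 0, with NMO CD11c+ left, NMO CD11c- next and control right. Symbols mark replicates, and bars give the mean and SD of each group. P2ry12 and P2ry13 are highest in control, P2rx4 is highest in NMO CD11c+ with no overlap between groups, and P2rx7 and Adora3 span narrow ranges.

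P2rx4, the ATP-gated channel known from rodent microglia for its part in pain after nerve injury, had 169.9 and 154.5 CPM in NMO CD11c+, 110.0, 113.1 and 111.1 CPM in NMO CD11c-, and 75.2, 91.9 and 82.7 CPM in control. The 3 groups did not overlap, with CD11c+ on top and control at the bottom. P2rx4 rose in NMO CD11c+ against control by 0.96 ± 0.11 on the log2 scale (SE, adjusted p 0.000703), a fold of 1.95 with a 95% interval of 1.646 to 2.303. That call held under each alternative.

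P2rx4 also rose in NMO CD11c- against control, by 0.42 ± 0.10 (SE, adjusted p 0.0472), close to the threshold. The call was lost without any 1 of the 6 libraries compared: CD11c- replicate 1 (adjusted p 0.116), 2 (0.147) or 3 (0.111), or control replicate 1 (0.215), 2 (0.0737) or 3 (0.158). With library size as the only scaling the adjusted p was 0.0564. Between NMO CD11c+ and NMO CD11c- the log2 fold change was 0.54 ± 0.11 (SE, adjusted p 0.0664, fold interval 1.23 to 1.72). That difference passed with DESeq2 (0.00445), the edgeR exact test (0.00377), no filter on low counts (0.0127), the GC and length correction (0.0336) and without CD11c+ replicate 2 (0.00540). P2rx4 transcripts have a GC content of 48.3%, near the median of tested genes.

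P2rx7, which neighbours P2rx4 on chromosome 5 (chr5:122643911-122691432) and gates the release of interleukin-1 beta from macrophages, varied little. It had 424.7 and 412.4 CPM in NMO CD11c+, 426.7, 394.0 and 415.2 CPM in NMO CD11c-, and 354.7, 379.1 and 374.9 CPM in control. All NMO libraries lay above all control libraries, and the NMO subsets overlapped. The fold had a 95% interval of 0.962 to 1.33 in NMO CD11c+ against control (adjusted p 0.289) and of 0.963 to 1.29 in NMO CD11c- against control (adjusted p 0.418). Between the subsets the interval was 0.862 to 1.20 (adjusted p 0.927). In NMO CD11c- against control the fold intervals of P2rx7 and P2rx4 overlapped. In NMO CD11c+ against control, and between the subsets, the P2rx7 interval lay under the P2rx4 interval. A difference between the channels in their fold changes was not tested.

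Of the 8 tested genes, 6 had non-overlapping libraries in NMO CD11c+ against control, 2 higher and 4 lower, and 43.7% of all tested genes did. For NMO CD11c- against control 6 genes did, 3 in each direction, against 33.8% of all tested genes. Between the subsets 3 did, 1 higher and 2 lower, against 28.0%. Nt5e, which passed the count filter only through NMO CD11c- and control libraries, is among the lower genes in both comparisons of NMO CD11c+.

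Entpd1 (chr19:40612366-40741602), the enzyme that clears extracellular ATP and ADP, had 660.4 and 719.7 CPM in NMO CD11c+, 853.5, 625.0 and 776.9 CPM in NMO CD11c-, and 951.2, 1014 and 956.5 CPM in control. Each NMO library lay under each control library, and the CD11c+ libraries lay within the CD11c- range. None of the differences was called: the log2 fold change was -0.50 ± 0.15 in NMO CD11c+ against control (SE, adjusted p 0.0583, fold interval 0.565 to 0.889) and -0.37 ± 0.13 in NMO CD11c- against control (SE, adjusted p 0.150, fold interval 0.632 to 0.943). Between the subsets it was -0.12 (adjusted p 0.680, fold interval 0.734 to 1.15). The CD11c+ against control difference sat at the threshold, with an adjusted p of 0.0258 without CD11c+ replicate 2, 0.0375 without CD11c- replicate 2, 0.00563 with DESeq2 and 0.0479 with the edgeR exact test.

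Nt5e (chr9:88327197-88372092), which makes adenosine from AMP, was close to the limit of detection. It had 1 and 1 counts in NMO CD11c+, 6, 11 and 11 counts in NMO CD11c-, and 6, 4 and 12 counts in control, or 0.176 to 1.66 CPM over all libraries. The CD11c+ libraries lay under all others. Nt5e passed the count filter only through NMO CD11c- and control libraries, so a low NMO CD11c+ value is partly built into its being tested. The ratios below are therefore descriptions, and no difference is read from them. From the summed counts, 2 in NMO CD11c+ against 28 in NMO CD11c-, the ratio per library size was 0.136 with a 95% interval of 0.0157 to 0.539. Against the 22 counts of control the CD11c+ ratio was 0.216 (0.0247 to 0.880), and the ratio of NMO CD11c- to control was 1.59 (0.878 to 2.92). These intervals cover counting error only, and edgeR's adjusted p was 0.207 between the subsets, 0.158 for CD11c+ against control and 0.559 for CD11c- against control. Nt5e counts were lowest where neutrophil and monocyte marker sums were lowest, and the part of such cells in them was not tested.

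Adora3 (chr3:105870858-105908926), the Gi-coupled adenosine receptor, had 145.4 and 159.3 CPM in NMO CD11c+, 166.4, 144.8 and 159.6 CPM in NMO CD11c-, and 138.6, 159.3 and 138.8 CPM in control. The 3 groups overlapped. The fold interval was 0.879 to 1.25 in NMO CD11c+ against control (adjusted p 0.736), 0.922 to 1.26 in NMO CD11c- against control (adjusted p 0.623) and 0.814 to 1.16 between the subsets (adjusted p 0.870). Of the 3729 exon bases of Adora3, 779 are shared with Tmigd3 on the same strand, so its counts are uncertain.

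Adora2a (chr10:75316877-75334784), the Gs-coupled adenosine receptor, had 0 and 3 counts in NMO CD11c+, 1, 1 and 1 counts in NMO CD11c-, and 1, 0 and 0 counts in control. Pooled per group this was 0.284 CPM in NMO CD11c+ (exact 95% Poisson interval 0.0585 to 0.829), 0.149 CPM in NMO CD11c- (0.0307 to 0.436) and 0.0398 CPM in control (0.00101 to 0.222). The intervals overlap, cover counting error only, and no difference was detectable at this depth.

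To order the genes by level, CPM were divided by exon length in kilobases. P2ry12 led in all groups, with 925 ± 225 CPM per kb in NMO CD11c+ (SD, n = 2), 1323 ± 212 in NMO CD11c- (SD, n = 3) and 1865 ± 58.4 in control (SD, n = 3). P2ry13 followed with 319 ± 23.3 CPM per kb in NMO CD11c+, 392 ± 67.5 in NMO CD11c- and 626 ± 35.9 in control. Below them came Entpd1, P2ry6, P2rx7, Adora3 and P2rx4, the last with 23.1 ± 1.55 CPM per kb in NMO CD11c+, 15.9 ± 0.223 in NMO CD11c- and 11.9 ± 1.19 in control. The order was the same in NMO CD11c- and control and no neighbours in it overlapped, although the Entpd1 and P2ry6 means of 135 ± 20.8 and 108 ± 4.25 CPM per kb in NMO CD11c- lay close. The last places, Nt5e over Adora2a, rested on 28 and 3 summed counts in NMO CD11c- and 22 and 1 in control. The order of Nt5e and Adora2a is therefore not read as a difference in level. In NMO CD11c+ the Entpd1 mean of 124 ± 7.51 CPM per kb and the P2ry6 mean of 115 ± 29.8 were not separated, nor were Adora2a and Nt5e. P2rx4 was the lowest of the 5 nucleotide receptors in each group, also where it was highest.

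**Figure D3:**
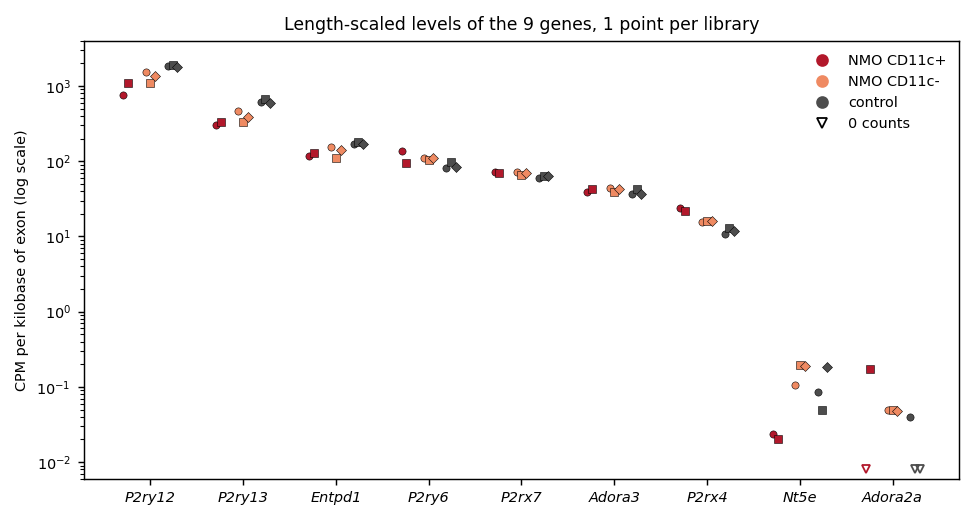
CPM per kilobase of exon for the 9 genes in each library, on a log axis, ordered by level in control, with colours for NMO CD11c+, NMO CD11c- and control and open triangles for libraries with 0 counts. P2ry12 and P2ry13 lead each group, P2rx4 is the lowest of the nucleotide receptors, and Nt5e and Adora2a lie under 1 CPM per kb.

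Ratios of counts within a library, not divided by gene length, do not depend on the scaling between libraries. They are not corrected for GC content, which was 38.6% for P2ry12, 48.3% for P2rx4 and 55.9% for P2ry6. NMO CD11c+ replicate 1, which followed GC content, gave the lowest value of each ratio given here. The part of GC content in the ratios was not tested. The P2ry12 to P2rx4 ratio was 11.5 and 17.9 in NMO CD11c+, 35.0, 24.6 and 31.2 in NMO CD11c-, and 62.7, 53.4 and 55.9 in control. The 3 groups did not overlap in this ratio of an ADP receptor to an ATP channel. This separation follows from the CPM above, where P2ry12 and P2rx4 each separated the 3 groups, in opposite directions. It adds no support of its own. The P2ry12 to P2ry13 ratio, by contrast, was 2.55 and 3.25 in NMO CD11c+, 3.299, 3.365 and 3.533 in NMO CD11c-, and 3.01, 2.92 and 3.07 in control. In that ratio of the ADP receptor genes the groups' means lay close together, with NMO CD11c+ replicate 1 the lowest and the NMO CD11c- libraries the highest.

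The P2ry12 to P2ry6 ratio was 4.95 and 10.1 in NMO CD11c+, 12.0, 9.34 and 11.0 in NMO CD11c-, and 19.96, 17.37 and 18.95 in control, so the NMO subsets overlapped and control stood above both. The P2ry12 to P2rx7 ratio was 4.59 and 6.69 in NMO CD11c+, 9.03, 7.07 and 8.33 in NMO CD11c-, and 13.29, 12.95 and 12.32 in control, with no overlap. Between the ATP channels, the P2rx7 to P2rx4 ratio was 2.50 and 2.67 in NMO CD11c+, 3.88, 3.48 and 3.74 in NMO CD11c-, and 4.72, 4.12 and 4.54 in control, again with no overlap. These ratios are descriptions with no test of their own. Of the counts per kb of the 7 receptor genes, P2ry12 held 61.5 ± 6.08% in NMO CD11c+ (SD, n = 2), 67.7 ± 1.09% in NMO CD11c- (SD, n = 3) and 69.3 ± 0.587% in control (SD, n = 3). P2rx4 held 1.57 ± 0.333% in NMO CD11c+, 0.827 ± 0.139% in NMO CD11c- and 0.440 ± 0.0331% in control.

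**Figure D4:**
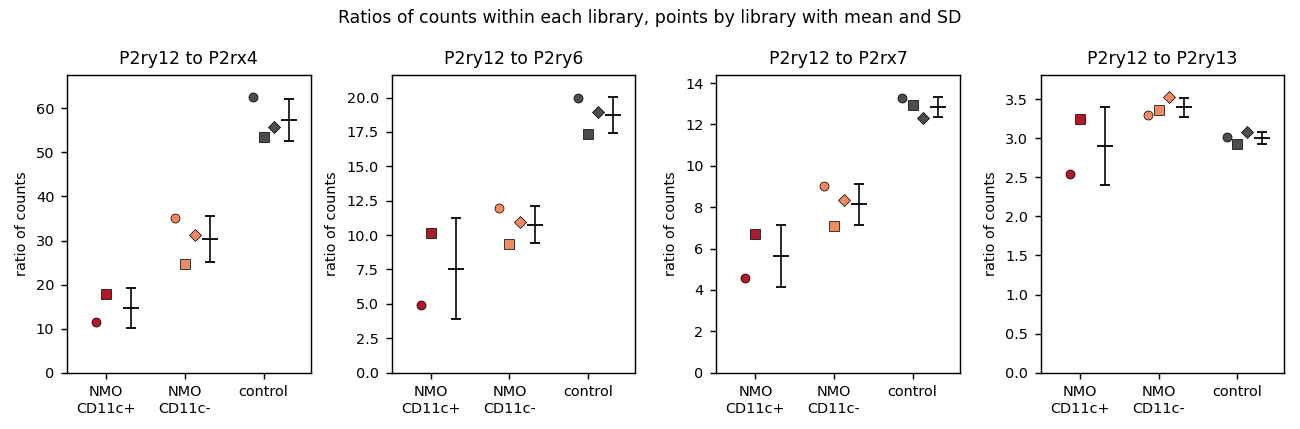
Ratios of counts between pairs of receptor genes within each library, on linear axes from 0, for NMO CD11c+, NMO CD11c- and control, with the mean and SD of each group. P2ry12 to P2rx4 separates the 3 groups, as the CPM of both genes did. It runs from 11.5 in the lowest NMO CD11c+ library to 62.7 in the highest control library. P2ry12 to P2ry13 stays between 2.55 and 3.53, with the NMO CD11c- libraries highest. Values are not corrected for GC content.

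Beyond the 9, 91 further genes of the pathway were present in the files and 74 were tested: other nucleotide and adenosine receptors, ectonucleotidases, transporters, release channels and effectors. Against control, NMO CD11c+ had 5 called higher and 3 lower, 10.8% of those tested. NMO CD11c- had 4 called higher and 0 lower, or 5.41%, and between the subsets 0 were called (2 with DESeq2 and 3 with the edgeR exact test). The unadjusted p was under 0.05 for 12 of the 74 between the subsets, for 17 in NMO CD11c- against control and for 21 in NMO CD11c+ against control, where 15.4%, 18.8% and 28.8% of all tested genes had one. The shares of all tested genes called were 0.283%, 3.72% and 10.2% in the same comparisons. The median log2 fold change of the 74 was -0.11 in NMO CD11c+ against control. Acpp, Rgs18, Slc28a2 and Bst1, among the 12, passed the count filter only through libraries other than NMO CD11c+. Low NMO CD11c+ values are thus partly built into their being tested, and Acpp is also among the 21. P2ry2 and P2ry14, among the 17 and the 21, passed it through NMO libraries. P2ry2 is also among those called higher in both NMO subsets. Nothing particular to the 74 is read from these counts.

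The receptors P2ry2 and Adora1 rose in both NMO subsets from low levels. P2ry2, a receptor for ATP and UTP, had 8.17 and 7.58 CPM in NMO CD11c+, 4.34, 3.31 and 3.97 CPM in NMO CD11c-, and 0.856, 0.750 and 1.57 CPM in control. Its log2 fold change was 2.90 ± 0.34 in NMO CD11c+ (SE, adjusted p 0.000787) and 1.88 ± 0.33 in NMO CD11c- (SE, adjusted p 0.0124), both against control. The CD11c- call was lost without CD11c- replicate 1 (adjusted p 0.0503) and without control replicate 1 (0.0705) or 2 (0.0666). P2ry2 passed the count filter through NMO libraries, so a low control value is partly built into its being tested, and into both calls. Adora1, the Gi-coupled high-affinity adenosine receptor, had 15.9 and 14.4 CPM in NMO CD11c+, 11.4, 7.68 and 10.1 CPM in NMO CD11c-, and 2.94, 2.89 and 2.48 CPM in control. Its libraries did not overlap between NMO and control, and it rose by 2.44 ± 0.22 in NMO CD11c+ (SE, adjusted p 0.000214) and by 1.80 ± 0.21 in NMO CD11c- (SE, adjusted p 0.00140). Adora1 overlaps Mybph on the opposite strand, and the strand setting of the counting is not given in the sources used here.

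Gpr34, a lysophosphatidylserine receptor, and P2ry10b, both related to the P2Y family, fell in NMO CD11c+ against control. Gpr34, which is also 1 of the 10 microglia markers above and a gene typical of microglia, had 719.2 and 1201 CPM in NMO CD11c+, 1659.6, 1260.5 and 1495.1 CPM in NMO CD11c-, and 1753, 1786 and 1608 CPM in control. P2ry10b had 5.31 and 13.4 CPM in NMO CD11c+, 23.3, 15.7 and 21.2 CPM in NMO CD11c-, and 19.6, 25.5 and 28.6 CPM in control. The Gpr34 log2 fold change against control was -0.84 ± 0.21 (SE, adjusted p 0.0339) and P2ry10b's was -1.37 ± 0.33 (SE, adjusted p 0.0304). Both rested on CD11c+ replicate 1, the lower library for each: without it Gpr34 differed by -0.52 (adjusted p 0.0855) and P2ry10b by -0.88 (0.0939). The Gpr34 call was also lost without any control replicate (0.0953, 0.102 and 0.0823 in order) or without CD11c- replicate 1 (0.0518) or 3 (0.0652). The P2ry10b call was also lost without any control replicate (0.0501, 0.0899 and 0.104 in order) or without CD11c- replicate 3 (0.0530). Gpr34 lies in the span of Cask.

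Among the enzymes and effectors, Enpp1, an ATP pyrophosphatase, and Adcy3, an adenylyl cyclase, rose in NMO CD11c+ against control, and Elmo1, which links receptors to Rac in engulfment, fell. Elmo1 had 267.4 and 325.4 CPM in NMO CD11c+, 404.0, 353.2 and 362.5 CPM in NMO CD11c-, and 521.6, 492.4 and 449.9 CPM in control, with no overlap between the 3 groups. Its log2 fold change in NMO CD11c+ against control was -0.72 ± 0.13 (SE, adjusted p 0.00964), and in NMO CD11c- against control it was -0.39 (adjusted p 0.104). Leaving out either CD11c+ library moved the CD11c- value past the threshold (0.0263 without replicate 1, 0.0255 without replicate 2), and leaving out CD11c+ replicate 2 did so between the subsets (0.0246). Enpp1 had 27.6 and 31.9 CPM in NMO CD11c+, 20.2 to 25.4 CPM in NMO CD11c- and 18.4 to 19.8 CPM in control. It rose by 0.62 ± 0.14 (SE, adjusted p 0.0247) and lost that call without control replicate 1 (0.0738), 2 (0.0787) or 3 (0.0917). Adcy3, with 23.5 and 21.0 CPM in NMO CD11c+, 13.9 to 18.4 CPM in NMO CD11c- and 11.7 to 13.7 CPM in control, rose by 0.79 ± 0.17 (SE, adjusted p 0.0170) and lost it without CD11c+ replicate 1 (0.0606) or control replicate 1 (0.0681) or 3 (0.0620). Adcy3 overlaps Cenpo.

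On the side of P2rx7 and its output, Il1b, the cytokine released downstream of this channel, had 9.19 and 21.1 CPM in NMO CD11c+, 9.28, 12.95 and 11.76 CPM in NMO CD11c-, and 4.77, 5.46 and 3.79 CPM in control. It rose by 1.70 ± 0.33 in NMO CD11c+ (SE, adjusted p 0.0115) and by 1.27 ± 0.30 in NMO CD11c- (SE, adjusted p 0.0490), both against control. Pycard, the inflammasome adaptor ASC, rose in NMO CD11c- against control by 0.36 ± 0.08 (SE, adjusted p 0.0390). In NMO CD11c+ its log2 fold change was 0.30 (adjusted p 0.0658), and 0.0348 without CD11c+ replicate 2. Both CD11c- calls were lost without any 1 of the 6 libraries compared, with adjusted p of 0.0727 to 0.178 for Il1b and 0.0912 to 0.171 for Pycard, and the CD11c+ call of Il1b without control replicate 3 (0.0569). Neutrophils also express Il1b, and their 10 markers summed to 15.3 to 19.7 CPM in NMO CD11c+, 2067 to 10682 CPM in NMO CD11c- and 864 to 1774 CPM in control. Their part in the Il1b values was not tested. The inflammasome list these genes come from went both ways. In each NMO subset against control, 4 of its 8 genes had a log2 fold change above 0 and 4 below. The median was 0.004 in NMO CD11c+ and 0.06 in NMO CD11c-.

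**Figure D5:**
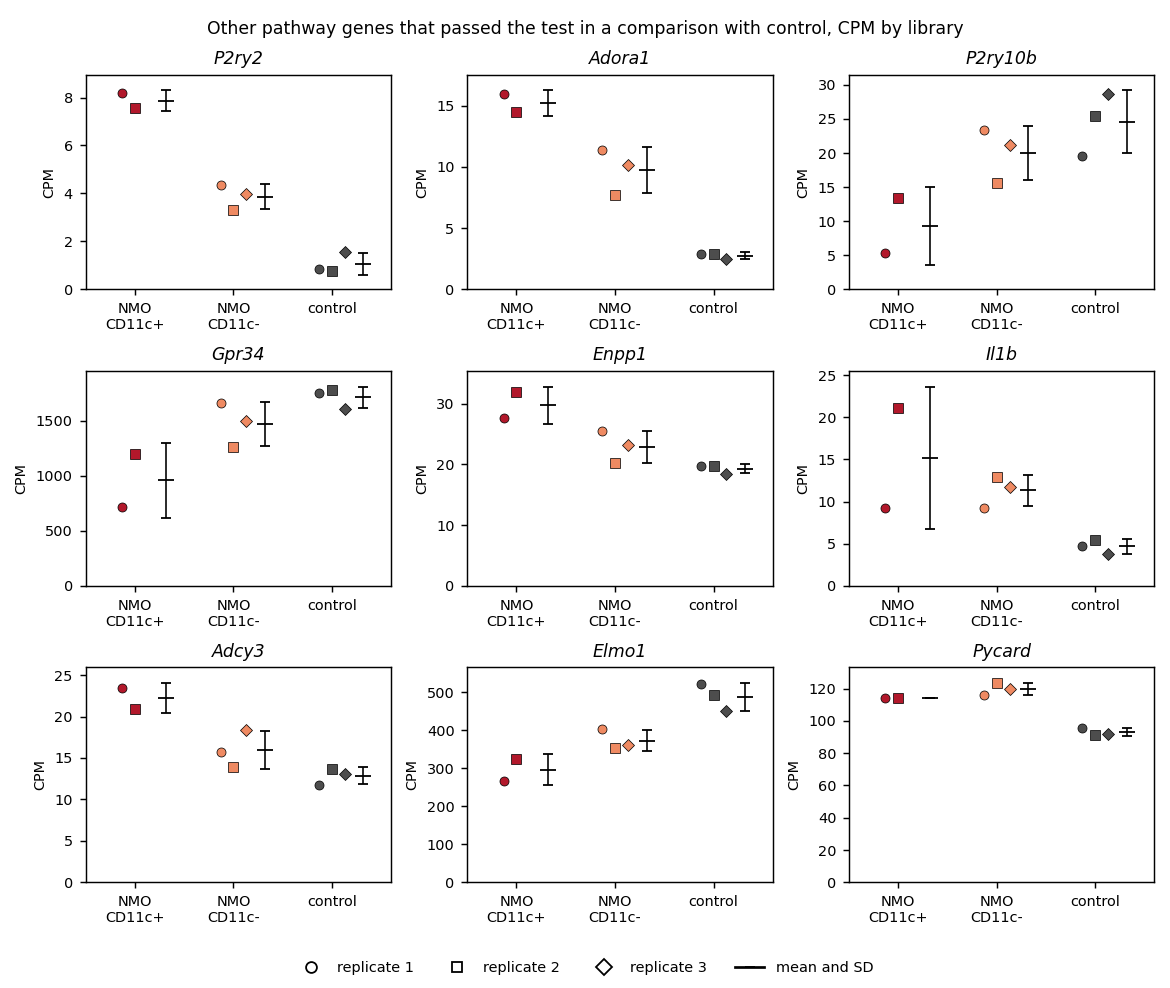
CPM in every library, on linear axes from 0, of the 9 further pathway genes called in a comparison with control, with NMO CD11c+ left, NMO CD11c- next and control right. Bars give the mean and SD of each group. P2ry2 and Adora1 lie lowest in control, Elmo1 lies highest in control, and Gpr34 and P2ry10b have 1 low NMO CD11c+ library.

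By list, the signalling genes below the receptors were called as follows. Between the subsets 0 were called in each list, against 0.283% of all tested genes. Against control, 0 of 14 Gi effector genes were called in NMO CD11c+ and 0 in NMO CD11c-, with 3 and 2 at an unadjusted p under 0.05. A list for signalling by P2ry6 held 12 genes, not all of them Gq effectors. Of these 1, Elmo1, was called in NMO CD11c+ and 0 in NMO CD11c-, with 4 and 2 at an unadjusted p under 0.05. Of 12 Gs and cAMP effector genes 1, Adcy3, was called in NMO CD11c+ and 0 in NMO CD11c-, with 4 and 1 at an unadjusted p under 0.05. Of 8 genes of the inflammasome list 1 was called in NMO CD11c+, Il1b, and 2 in NMO CD11c-, Il1b and Pycard. In that list 2 and 3 genes had an unadjusted p under 0.05. All tested genes were called at 10.2% in NMO CD11c+ and 3.72% in NMO CD11c-, with 28.8% and 18.8% at an unadjusted p under 0.05, and nothing particular to these lists is read from the counts. P2rx1, the other P2X channel tested, had 20.6 and 19.4 CPM in NMO CD11c+, 22.0 to 24.4 CPM in NMO CD11c- and 20.8 to 26.8 CPM in control. P2ry14, the UDP-glucose receptor, had 8 and 9 counts in NMO CD11c+, 10, 0 and 7 in NMO CD11c-, and 0, 2 and 1 in control (adjusted p 0.0616 for CD11c+ against control). It passed the count filter only through NMO libraries, so a low control value is partly built into its being tested. Enpp2, the autotaxin gene, had 467.6 and 117.5 CPM in NMO CD11c+, 217.0, 103.0 and 185.7 CPM in NMO CD11c- and 259.1, 436.2 and 443.7 CPM in control. Its NMO CD11c- libraries lay under the control libraries, at a log2 difference of -1.17 ± 0.44 (SE) and an adjusted p of 0.184, and the 2 CD11c+ libraries lay far apart. P2ry4, Entpd4, Entpd8, Enpp3 and Alpl had 0 counts in every library.

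Genes with the profile nearest to each of the 3 called genes were found over the 8 libraries among 6899 genes of at least 20 CPM, by the root mean square difference of centred log2 CPM. This is a description, and depth and GC content are shared by all genes of a library. For P2ry12, whose own profile had a root mean square of 0.439, the nearest were Jam2 (0.0893), Magt1 (0.0909), Cask (0.0968), Pdlim5 (0.101) and Arsk (0.108). Jam2, a junctional adhesion molecule, averaged 83.5 CPM in NMO CD11c+, 108 CPM in NMO CD11c- and 147 CPM in control. For P2ry13 (0.426) they were Lrba (0.108), Prkce (0.115), Cpox (0.115), Upk1b (0.120) and Dcaf1 (0.131). Lrba averaged 117 CPM in NMO CD11c+, 147 CPM in NMO CD11c- and 220.3 CPM in control. For P2rx4 (0.383) they were Ctsh (0.0938), Relb (0.0948), Dpp7 (0.0968), Slamf8 (0.101) and H2-T23 (0.102). Ctsh, a lysosomal cathepsin, averaged 997 CPM in NMO CD11c+, 712 CPM in NMO CD11c- and 539.7 CPM in control.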

How the data were processed

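The authors deposited raw gene counts, whole numbers for 41388 identifiers in each library. The submitters' processing notes name STAR, HTSeq 0.5.4 (a read counter), edgeR 3.12.0 and the build GRCm38. Neither the strand setting of the counting nor the annotation release is given in the sources used here. Symbols, coordinates, exon lengths and GC content came from GENCODE M21, and start-site windows from RefSeq GRCm38.p6; 40254 identifiers matched a symbol and 1134, with 0.155% of counts, did not. No 2 libraries were identical.

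Groups came from the labels. In R 4.3.3, edgeR 4.0.16 tested 12002 genes that passed filterByExpr at a minimum count of 10, with TMM scaling and 1 quasi-likelihood fit over all 8 libraries (5 residual and 5.08 prior degrees of freedom). Groups were compared by contrasts, with Benjamini-Hochberg adjustment over all tested genes. SE and 95% intervals come from that fit; intervals from counts cover counting error only. Depth was 4943207 to 9246061 counts per library. Adora2a failed the filter, and its counts were not tested.

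The 9 genes, the pathway lists and the marker lists were chosen with earlier results of these data known. The text names the 9 genes, pathway genes called in a comparison, the 5 genes nearest in profile to each called gene, and others by level; P2rx1, P2ry14 and Enpp2 were chosen after their values were seen. Acp3 and Pnp found no identifier under those symbols. Alternatives were other scalings, filters and tools (the exact test of edgeR, and DESeq2 1.42.0), a fit of the compared groups alone, a per-library loess correction for GC content and transcript length, and each library left out. The fits were first tested on simulated data.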

Additional observations from a re-analysis of the deposited data

How the results depend on the processing

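Among the 9 genes, the CD11c+ against control calls of P2ry12, P2ry13 and P2rx4 held under every alternative run, and the CD11c- against control calls of P2ry13 and P2rx4 did not, as given above. Of the 8 tested genes, the number called between the NMO subsets was 0, and 1 with no filter, DESeq2, the exact test or the GC and length correction, and 0 to 2 with 1 library left out. In NMO CD11c- against control it was 2, and 1 with library size as the only scaling and 3 with no filter, DESeq2, only the groups compared or the correction (0 to 3 with 1 library left out). In NMO CD11c+ against control it was 3, and 4 with library size only, no filter, DESeq2 or the exact test (3 to 5 with 1 library left out). The cause of these changes was not tested.

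Of the 74 further pathway genes, 0 were called between the subsets, and 6 with no filter, 2 with DESeq2 and 3 with the exact test (0 to 16 with 1 library left out). In NMO CD11c- against control 4 were called, and 8 with no filter, 9 with only the groups compared and 7 with the correction (1 to 9). In NMO CD11c+ against control 8 were called, and 15 with no filter, 15 with DESeq2 and 13 with the correction (3 to 25).

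Over all tested genes, 34 were called between the subsets, and 707 with no filter, 258 with DESeq2, 305 with the exact test, 5 with only the groups compared and 70 with the correction (4 to 3016 with 1 library left out). With library size only, 8 of these were higher and 24 lower, against 12 and 22. In NMO CD11c- against control 446 were called, and 1157 with no filter, 677 with DESeq2, 881 with the exact test, 1221 with only the groups compared and 953 with the correction (141 to 1193). In NMO CD11c+ against control 1225 were called, and 2115 with no filter and 627 with only the groups compared (487 to 4077).

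The correction without each CD11c+ library was chosen after seeing the data. Without replicate 1 it called 5 of all tested genes between the subsets and 1442 in NMO CD11c- against control, and 9 of the 74 in NMO CD11c- against control. Without replicate 2 it called 616 between the subsets, 1428 in NMO CD11c- against control and 2240 in NMO CD11c+ against control. For the 74 these were 2, 9 and 14, and for the 8 it called 1 between the subsets.

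Some uncalled log2 fold changes turned sign. Between the subsets, P2ry6 was -0.0875 with the correction, -0.23 with it and no CD11c+ replicate 1, and -0.20 to 0.33 with 1 library left out, the lowest without CD11c+ replicate 1. P2rx7 was -0.037 with library size only, -0.0039 with no filter, -0.0044 with the correction and no CD11c+ replicate 2, and -0.0082 to 0.0486 with 1 library left out, the lowest without CD11c- replicate 2. Adora3 was -0.11 to 0.0211 with 1 library left out, above 0 without CD11c+ replicate 1 or CD11c- replicate 1 (0.0015), and 0.0013 with the correction and no CD11c+ replicate 1. Entpd1 was 0.0169 with the correction and 0.072 with it and no CD11c+ replicate 2. Pycard was 0.0355 and 0.12 under the same settings. Il1b was -0.30 to 0.90 with 1 library left out, the lowest without CD11c+ replicate 2, and -0.12 with the correction as well. In NMO CD11c+ against control, Adora3 was -0.005 to 0.136 with 1 library left out, the lowest without CD11c+ replicate 2, and -0.0098 with the correction as well.

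With the longest transcript in place of all exons, 7 of the 9 genes kept their rank by level in all groups; Entpd1 and P2ry6 changed places in NMO CD11c+. No paired analysis was possible because the labels link no CD11c+ and CD11c- libraries of 1 mouse, and replicates were numbered by accession. Depth limits Nt5e and Adora2a, which had at most 12 counts in a library.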
